A study of Rattus norvegicus with 14 samples.

Results

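The genes described here encode the proteins of the cytosolic ribosome. Their mRNAs were measured in rat skin after months of millimetre wave exposure. A gene was taken as a member when a probe accession mapped to a rat RefSeq symbol beginning with Rpl or Rps and a number, or to Rplp0, Rplp1, Rplp2 or Rpsa; the Rps6k kinases were left out. The rule found 142 of 30367 probes, for 81 gene symbols, and used no measured value. Of these, 138 probes for 77 genes were above background on at least 6 of the 14 arrays, 30 genes of the small subunit and 47 of the large subunit. Each probe was matched to its gene by accession, so the name of the family follows from the annotation.

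The exposed group was 6 male CD hairless rats kept under 94 GHz waves for 3 h per day, 3 days per week, over 5.5 months. The sham group was 8 sham-exposed male rats of the same strain. Rats shared cages in pairs, and the labels do not say which rats shared one, so the arrays may not be fully independent. Each rat gave one piece of whole skin and 1 one-colour Agilent array, so that fewer cells of a type and less RNA per cell cannot be told apart. The age of the rats and the incident power are not used here.

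Ribosomal proteins join the ribosomal RNAs in the nucleolus and are needed in near equal numbers, and the cell makes their mRNAs among its most abundant ones. In mammals many of these mRNAs begin with a C followed by an unbroken run of pyrimidines, the 5′ terminal oligopyrimidine (TOP) tract, through which the mTOR pathway controls their translation as a block. Some members also act outside the ribosome: Rpl5 and Rpl11 form the 5S particle that can bind MDM2 and so raise p53, and Rplp0 is a common reference gene in skin PCR work.

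The annotated starts of the genes that carry the results are shown because they differ in the run of C and T that follows them. Each window holds 15 bases before the RefSeq start, in lower case, and 15 bases from it on build GRCr8, with the run of C and T that begins at the start in capitals.
Rplp0 (chr12:46718376-46718405, minus strand): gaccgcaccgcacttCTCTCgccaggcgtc
Rplp1 (chr8:71290858-71290887, minus strand): gcaggcgcatgtgatCCTTTCCTCagctgc
Rpl31 (chr9:49143096-49143125, plus strand): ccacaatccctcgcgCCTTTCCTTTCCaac
Rpl10 (chrX:157205835-157205864, plus strand): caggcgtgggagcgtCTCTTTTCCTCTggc
Rpl22 (chr5:168117946-168117975, plus strand): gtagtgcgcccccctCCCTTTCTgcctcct
Rpl5 (chr14:1995211-1995240, minus strand): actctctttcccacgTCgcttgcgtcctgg
Rpsa (chr8:128728864-128728893, plus strand): cctttccgcgctaccCTggaacgggtccgt
Rps4y2 (chr4:183000898-183000927, plus strand): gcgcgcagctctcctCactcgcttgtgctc
Rpl3l (chr10:14258431-14258460, plus strand): gacctctggtgcctggtggggaggtccctt
The first 5 of these begin with C and at least 4 further pyrimidines, and the other 4 do not. In Rpl5, Rpsa and Rps4y2 a pyrimidine run lies shortly upstream of the annotated start, so that the count depends on which base the annotation calls the first.

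RefSeq start windows were found for 66 of the 81 members. A C followed by at least 4 pyrimidines on the gene's own strand, a TOP-like start, began 23 of these 66 windows, 34.8%, against 722 of 27457 windows of all rat genes, 2.63%. A run of at least 5 pyrimidines from the start, whatever its first base, was present in 32 members, 48.5%, against 4.69% of all genes. These letters describe the annotated starts and show no binding or use.

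The 75th percentile of the signal of all probes lay between 1075 and 1966 scanner units in exposed rats and between 804.5 and 1967 in sham rats, the lowest being sham rat 6. No spot was saturated on any array. Of the 77 genes, 76 were among the 10% of genes with the brightest probes, Rpl15 being the other. All 7 basal keratinocyte markers on the array, Krt5 and Krt14 among them, were above background. The RNA of skeletal muscle differed widely between rats: the mean of 13 muscle markers ran between -1.85 and 4.84 log2 units around its own average in exposed rats and between -2.67 and 3.45 in sham rats.

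No ribosomal protein gene was called different in exposed skin. After Benjamini-Hochberg adjustment of limma's p-values over 18611 genes, 0 of the 77 passed an adjusted p of 0.05 under either scaling, against 0% of all genes. Without adjustment 0 of the 77 had a p under 0.05, against 3.42% of all genes under 75th percentile scaling and 3.48% under quantile normalization. The smallest unadjusted limma p of a member was 0.321 (Rps4y2) under 75th percentile scaling and 0.0683 (Rpl31) under quantile normalization, both with an adjusted p of 1. In no member did the 6 exposed and 8 sham values stand apart without overlap, against 0.0322% of all genes under each scaling.

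In the 3 other fits given here with members under that p, their share was below that of all genes. Without sham rat 6 on the 75th percentile scale, 5 of the 77 (Rpsa, Rpl31, Rps25, Rps20 and Rpl22l1) had a higher exposed mean at an unadjusted limma p under 0.05, against 8.32% of all genes, and their adjusted p-values were 0.553 to 0.596. With limma's array weights it was 3 of 77 (Rpl22l1, Rpl31 and Rps25), against 12.7% of all genes. Within slide 3 alone it was 1 of 77 (Rpsa), against 2.77% of all genes. Rpsa, Rpl31, Rps25, Rps20 and Rpl22l1 all had their lowest value on the 75th percentile scale in sham rat 7. As described below, single spots read low on that array, and Rps25, Rps20 and Rpl22l1 were read from 1 spot each. The part of that array in these differences was not tested.

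The 95% intervals bound the differences on each scale. Under 75th percentile scaling, in which the log2 75th percentile of each array is subtracted, the 95% interval of the exposed minus sham difference lay within 1.5-fold either way for 69 of 77 members, against 80.3% of all genes. Under quantile normalization, which gives every array the same distribution of values, it lay within 1.5-fold for 75 of 77 members, against 81.4% of all genes. Within 2-fold lay 76 of 77 members under both, against 94.8% of all genes under each, and the exception was Rps4y2 both times. The median standard error of a member was 0.19 log2 units under 75th percentile scaling, above the 0.13 of all genes, and 0.058 under quantile normalization, below the 0.12 of all genes. All genes span every brightness, while 76 of the 77 members were among the brightest 10%. Under quantile normalization the median SD over arrays was 0.16 for the other bright genes, 0.22 for all genes and 0.089 for members. Interval shares of the other bright genes are not given here.

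The direction of the small differences turned with the scaling. Under 75th percentile scaling the exposed mean was above the sham mean in 28 members, 36.4%, against 43% of all genes, and the median difference was -0.016 log2 units beside -0.019 over all genes. Under quantile normalization it was above in 50 members, 64.9%, against 48% of all genes, and the median difference was 0.015 beside -0.0057 over all genes. Both subunits did the same: the median difference of small subunit genes was -0.0077 and 0.017, and that of large subunit genes -0.021 and 0.014, each time under 75th percentile scaling and then under quantile normalization. No direction is therefore given for the family.

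**Figure D1:**
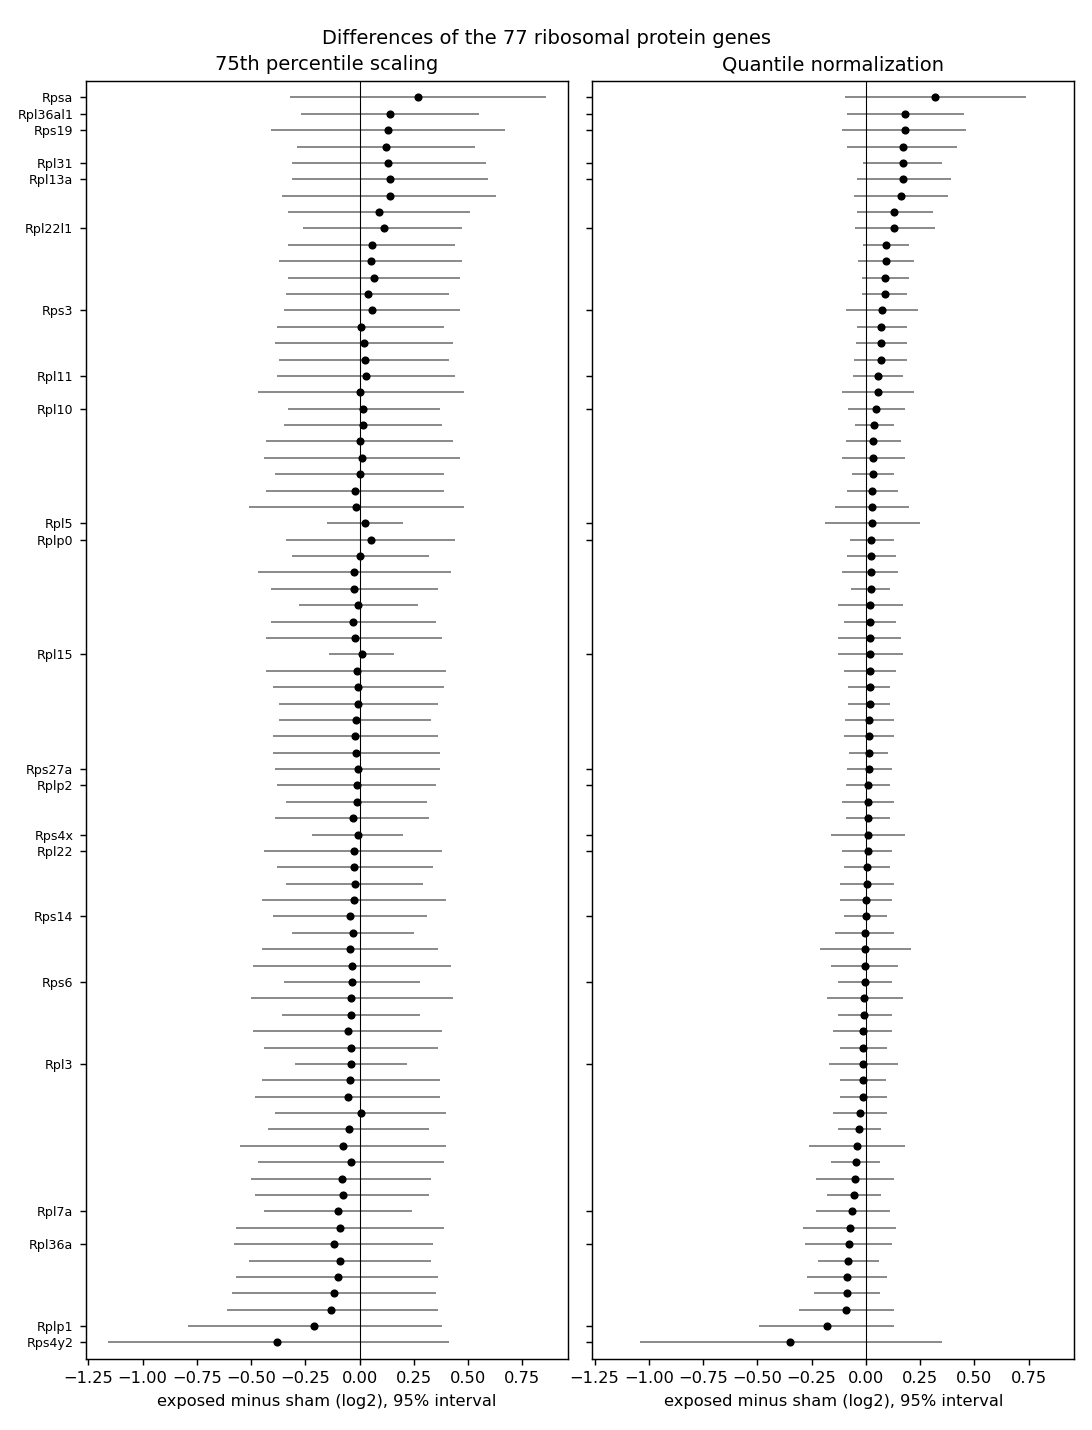
Exposed minus sham difference (log2, x axis) of each of the 77 ribosomal protein genes, ordered by the quantile value, with limma's 95% interval as a line and the 23 named genes labelled; left, 75th percentile scaling, right, quantile normalization. Every interval crosses 0, most intervals are narrower on the right though that of Rpl5 is wider, and the widest under both scalings is that of Rps4y2.

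What the family did show was movement as 1 block between rats, on 1 scale and not on the other. Under 75th percentile scaling the mean correlation over pairs of members, across the 14 arrays, was 0.9 (median 0.95), while the mean over all pairs of genes was 0.018 and over pairs of the other bright genes 0.37. Under quantile normalization the mean was 0.08 between members (median 0.072), 0.0017 over all genes and 0.011 over the other bright genes. Without any scaling it was 0.53 between members (median 0.58), beside 0.55 over all genes and 0.41 over the other bright genes. These correlations describe the arrays; all points share the array and its scaling factor.

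Sham rat 6 was the array that moved most. The median of the 77 genes, each taken relative to its own mean over the 14 arrays, was 0.098, 0.11, 0.3, 0.032, -0.27 and -0.26 in exposed rats 1 to 6 under 75th percentile scaling. In sham rats 1 to 8 it was 0.042, -0.3, -0.16, -0.083, 0.022, 1, -0.21 and -0.19. All 77 members were above their own mean in sham rat 6, and the group averages were 0.0017 ± 0.23 in exposed rats and 0.015 ± 0.41 in sham rats (SD, n = 6 and 8).

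Under quantile normalization the same median lay between -0.00071 and 0.043 in exposed rats and between -0.046 and 0.11 in sham rats, with sham rat 6 again the highest. The unscaled log2 signal of the family had a median of 17.40 in sham rat 6, inside the range of 17.07 to 17.41 in exposed rats and of 17.16 to 17.42 in the other sham rats. The array of sham rat 6 had the lowest 75th percentile, 804.5, and exposed rat 3, whose family median of 0.3 was the second highest, had the second lowest, 1075. Other bright genes stood 0.55 above their means in sham rat 6 under 75th percentile scaling and 0.00095 under quantile normalization. Without sham rat 6 the median correlation between members was 0.86 under 75th percentile scaling and 0.036 under quantile normalization.

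**Figure D2:**
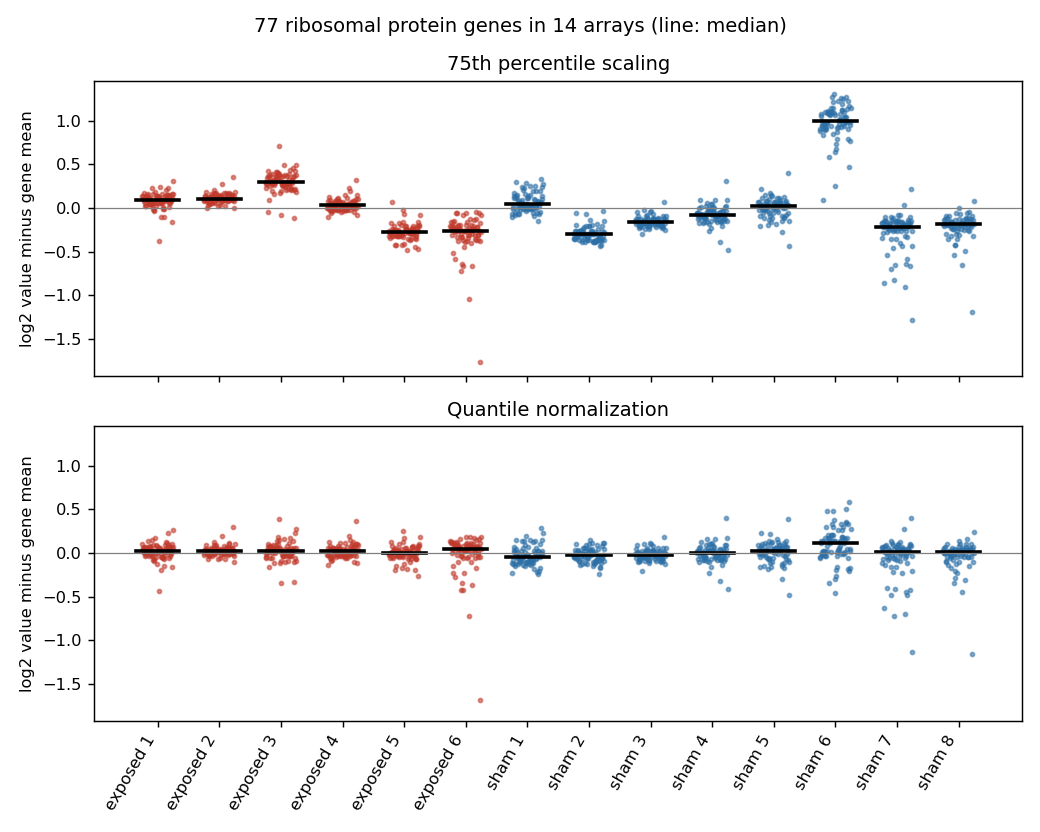
Each point is 1 of the 77 ribosomal protein genes on 1 array, as its log2 value minus its own mean over the 14 arrays (y axis), exposed rats in red and sham rats in blue, with the median as a black line. With 75th percentile scaling (top) the whole family shifts together and sham rat 6 has a median of 1; with quantile normalization (bottom) the medians lie between -0.046 and 0.11, and the points far below the rest are in exposed rat 6 and sham rats 7 and 8.

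**Figure D3:**
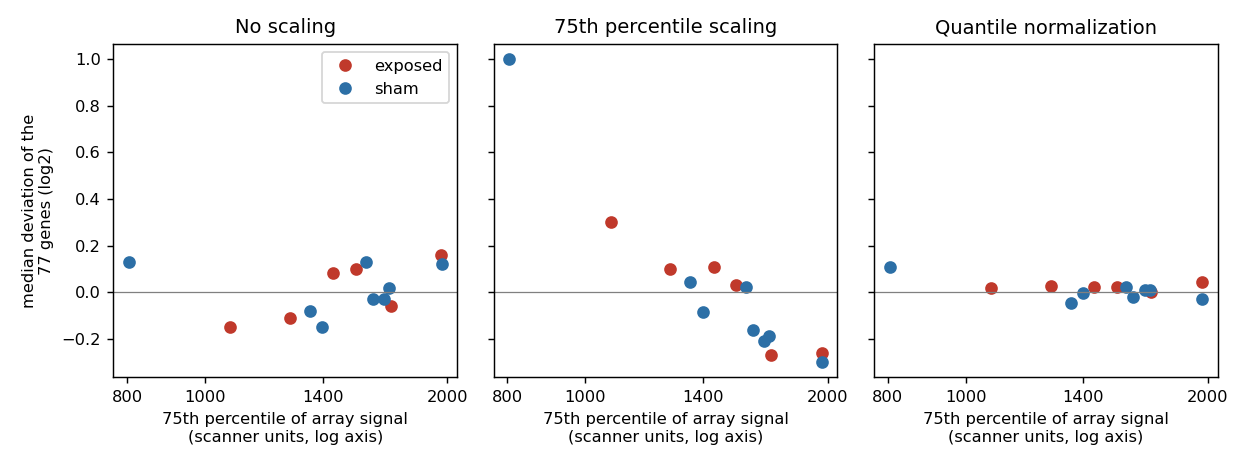
Median deviation of the 77 genes (log2, y axis) against the 75th percentile of each array's signal (scanner units, log axis), for the 6 exposed arrays in red and the 8 sham arrays in blue, under 3 treatments of the same signals. The falling order in the middle panel, in which the point at 804.5 units is sham rat 6, is absent from the left and right panels.

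The stalk proteins Rplp0, Rplp1 and Rplp2 form the flexible arm of the large subunit that recruits elongation factors. On the 75th percentile scale Rplp0 had a lowest, median and highest value of 7.86, 8.22 and 8.54 in exposed rats, against 7.76, 8.02 and 9.09 in sham rats. The groups overlapped throughout, the sham maximum being sham rat 6, and the difference was 0.05 ± 0.18 (SE; 95% interval -0.34 to 0.44). Under quantile normalization, which fixes the value at each rank, Rplp0 had 18.70 ± 0.026 in exposed rats and 18.67 ± 0.059 in sham rats (SD, n = 6 and 8).

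Rplp2 had 7.41, 7.68 and 7.96 in exposed rats, against 7.40, 7.54 and 8.63 in sham rats, and its difference was -0.012 ± 0.17 (SE) on the 75th percentile scale. Rplp1 had 6.15, 7.20 and 7.68 in exposed rats, against 6.53, 7.20 and 8.41 in sham rats. The medians of Rplp1 were equal and its difference of -0.21 ± 0.27 (SE) came with low values in exposed rat 6 and sham rat 8.

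In the small subunit, Rps6 is the protein that the S6 kinases phosphorylate when mTOR is active. It had 6.36, 6.62 and 6.84 in exposed rats, against 6.31, 6.55 and 7.40 in sham rats, with a difference of -0.033 ± 0.15 (SE). The other probe of Rps6 went the opposite way, by 0.11 on the 75th percentile scale and 0.16 on the quantile scale. Rps3, which lines the mRNA entry channel and also acts in DNA repair, had 6.80, 7.20 and 7.48 in exposed rats, against 6.45, 7.0 and 8.01 in sham rats. Rps3 differed by 0.057 ± 0.19 on the 75th percentile scale and by 0.076 ± 0.078 on the quantile scale (SE). In both genes the exposed values lay inside the sham range on the 75th percentile scale.

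Rps14 and Rps19, whose human counterparts are known from 5q- syndrome and Diamond-Blackfan anaemia, gave differences of -0.046 ± 0.17 and 0.13 ± 0.25 (SE). By its brightest probe Rps14 was nearly constant on the quantile scale, at 16.94 ± 0.040 in exposed rats and 16.94 ± 0.053 in sham rats (SD). The other probe of Rps14 differed by -0.17 between exposed and sham rats on the quantile scale, with an SD of 0.34 over the 14 arrays. Rps19 had 17.28 ± 0.032 in exposed rats and 17.11 ± 0.33 in sham rats on that scale, the wider sham spread being set by sham rats 4, 5 and 7 at 16.87, 16.89 and 16.49. Its other 2 probes differed by -0.074 and 0.066 between exposed and sham rats on the 75th percentile scale. Rps4x, the X-linked copy of S4, was among the 3 members with the smallest SD over arrays on the 75th percentile scale, but on the quantile scale its SD was 0.13, above the member median of 0.089. On the 75th percentile scale it had 5.00, 5.18 and 5.26 in exposed rats, against 4.90, 5.12 and 5.62 in sham rats. Rps27a, made as a fusion with ubiquitin, differed by -0.0073 ± 0.18 (SE).

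In the large subunit, Rpl3 and Rpl10 reach towards the peptidyl transferase centre. Rpl3 had 6.47, 6.76 and 6.89 in exposed rats, against 6.44, 6.72 and 7.31 in sham rats, and a difference of -0.04 ± 0.12 (SE). Rpl10 had 6.88, 7.18 and 7.41 in exposed rats, against 6.78, 7.01 and 8.03 in sham rats, and a difference of 0.016 ± 0.16 (SE). The groups of both genes overlapped along the whole exposed range.

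Rpl5 and Rpl11, which carry the 5S RNA, gave differences of 0.023 ± 0.081 and 0.03 ± 0.19 (SE). Rpl5 had 5.47, 5.54 and 5.65 in exposed rats, against 5.28, 5.56 and 5.79 in sham rats, and its SD over all 14 arrays was 0.13, beside 0.36 for Rpl11. On the quantile scale this order was reversed, with an SD of 0.19 for Rpl5 and 0.076 for Rpl11. Rpl13a, part of the interferon-gated GAIT complex in human cells, had 7.13, 7.48 and 7.70 in exposed rats, against 6.48, 7.19 and 8.33 in sham rats. Its difference was 0.14 ± 0.21 (SE), and its lowest value was sham rat 7. Rpl7a, with a difference of -0.1 ± 0.16, and Rpl36a, with -0.12 ± 0.21 (SE), were among the 4 members with the smallest p below 0. Rpl15 had the smallest SD over arrays on the 75th percentile scale, 0.11, but not on the quantile scale, where its SD was also 0.11, above the member median of 0.089. On the 75th percentile scale it had a difference of 0.0091 ± 0.071 (SE). Both Rpl15 and Rps4x were read from 10 spots, where the other members were read from 1 or 2.

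**Figure D4:**
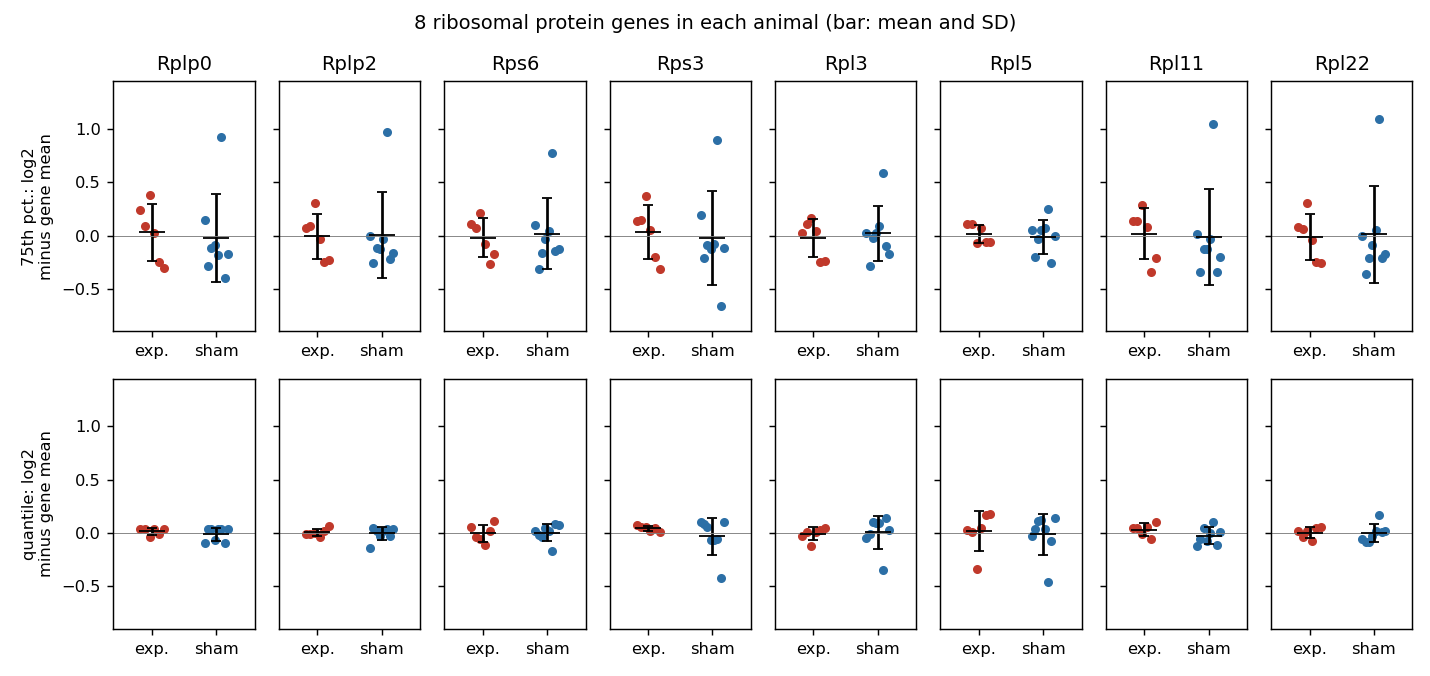
Values of 8 ribosomal protein genes in each rat, as log2 minus the gene's mean over 14 arrays (y axis), exposed rats (exp., red, n = 6) left of sham rats (blue, n = 8), with mean and SD as bars; top row, 75th percentile scaling, bottom row, quantile normalization. The single high sham point in the top row is sham rat 6, which in Rps6, Rpl3 and Rpl5 is the lowest sham point in the bottom row.

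Some members have a second, tissue-restricted copy. Rpl22l1, the paralog that can replace Rpl22, had 4.12, 4.41 and 4.63 in exposed rats, against 3.79, 4.22 and 5.23 in sham rats, and Rpl22 had 6.21, 6.48 and 6.77 in exposed rats, against 6.11, 6.34 and 7.56 in sham rats. The differences were 0.11 ± 0.17 for Rpl22l1 and -0.028 ± 0.19 for Rpl22 (SE). The 2 probes of Rpl22l1 went opposite ways, 0.11 and -0.057. Near-identical copies such as Rpl36a and Rpl36al1, or Rps4x and Rps4y2, may share labelled RNA on their probes, and the array does not show how much.

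Rpl3l, the copy of Rpl3 made in striated muscle, did not pass the filter on dim probes. Its signal was above background in 3 of 6 exposed rats and 2 of 8 sham rats, at 750, 79.5 and 80.5 units in exposed rats 2, 5 and 6, against 318 and 176 units in sham rats 5 and 7. Those 5 rats were also the 5 with the highest mean of the 13 muscle markers, 4.84, 1.54 and 1.29 in the exposed rats and 3.45 and 2.74 in the sham rats, and that mean was at most -0.02 in every other rat. Rpl3 itself lay between 6.47 and 6.83 in the same 5 rats on the 75th percentile scale. The other 3 members below the filter were Rps12l4, above background in exposed rat 5 alone, and Rpl39l1 and Rpl27l2, above background on no array.

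Within the array of sham rat 6 the members did not move equally. On the 75th percentile scale the smallest deviations from the gene's own mean were 0.1 in Rpl15, 0.25 in Rpl5, 0.46 in Rps4x, 0.58 in Rpl3, 0.64 in Rpl4 and 0.68 in Rpl6. The largest were 1.3 in Rpl39, 1.27 in Rps27, 1.27 in Rpl36 and 1.26 in Rps15. On the quantile scale Rpl5, Rpl3 and Rpl4 were -0.46, -0.35 and -0.3 in sham rat 6, while Rpl39, Rps27 and Rpl36 were 0.38, 0.34 and 0.34. Over the 77 genes the quantile deviations of exposed rat 3 and sham rat 6 correlated at 0.63, as a description of these 2 arrays, which had the 2 lowest 75th percentiles. The part of RNA quality or labelling in this order was not tested.

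The members were also split by whether their annotated start was TOP-like. This sorts them by the base that RefSeq calls the first. Members counted without such a start, for example Rpl23, can hold a run of C and T just before it. Of the measured members with a window, the 23 with such a start had a median deviation of 0.99 in sham rat 6 on the 75th percentile scale, against 1.0 in the 39 without. Their median SD over arrays was 0.36, against 0.35. The exposed mean was above the sham mean in 4 of the 23 and in 17 of the 39 on the 75th percentile scale, and in 13 of the 23 and 27 of the 39 on the quantile scale. The median differences were -0.024 with and -0.0073 without the start on the 75th percentile scale, and 0.0039 with and 0.017 without on the quantile scale, and no test was made of these.

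In several of the members with larger differences, such as Rpsa, Rplp1 and Rpl36al1, 1 spot of a pair read low on some arrays. Rps4y2 and Rps19 were read from 1 spot each, so that no second spot could be set beside it. Rpl13a, low in sham rat 7, was read from 2 spots that lay within 0.5 log2 units of each other on every array. Of the 138 probes above background, 80 were printed as 2 spots at different places on the array, 56 as 1 spot and 2 as 10 spots. In 14 of the 80 pairs the spots lay over 0.5 log2 units apart on some array after quantile normalization, 17.5%, against 26.5% of the other paired probes above background and 6.27% of the bright ones among these. The pairs were 2 measurements of the same labelled RNA, so a gap between them is not a difference between rats.

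Rpsa encodes the laminin receptor precursor, a small subunit protein, and had the largest positive difference, 0.27 ± 0.28 on the 75th percentile scale and 0.32 ± 0.19 on the quantile scale (SE). It had 5.53, 5.76 and 6.11 in exposed rats, against 4.32, 5.48 and 6.76 in sham rats. Relative to its own median, its first spot stood at -1.11, -1.16 and -2.57 log2 units in sham rats 4, 5 and 7, where the second spot stood at 0, -0.05 and -0.03. By the first spot alone the difference between exposed and sham rats was 0.56, and by the second spot alone -0.011, on the 75th percentile scale. A second probe of Rpsa gave -0.034.

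Rplp1 had the second most negative difference, and its first spot stood at -0.64, -0.69 and -1.84 relative to its median in exposed rats 1, 5 and 6 and at -1.27 in sham rat 8. The second spot stood at -0.01, 0.01 and 0.03 in those exposed rats and at 0.02 in sham rat 8. By the first spot alone the difference was -0.4 and by the second alone -0.018. Rps4y2, the only member whose interval passed 2-fold, was read from 1 spot, and had 3.76, 3.45 and 2.15 in exposed rats 1, 5 and 6 and 2.72 in sham rat 8, against 4.24 to 4.34 in the other exposed rats and 3.89 to 5.09 in the other sham rats. The second probe of Rps4y2, with 2 spots, gave a difference of 0.15, opposite to the -0.38 of the brighter probe.

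Rpl31, with the smallest p on the quantile scale, differed by 0.026 by its first spot and by 0.24 by its second on the 75th percentile scale. The second spot was low in sham rat 7, where the pair lay 0.99 apart. Rpl36al1 differed by 0.3 by its first spot and by -0.014 by its second, and Rps3 by 0.15 and -0.033. Rpl36a differed by -0.039 by its first spot and by -0.2 by its second. Relative to its median that second spot stood at -1.03 in exposed rat 6 and at -0.67 in sham rat 8. The other probes of Rpl36a gave 0.0018, -0.14 and -0.016. The second probe of Rps23, not the one used for the gene, differed by 0.57 by its first spot and by -0.5 by its second.

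These low spots fell on arrays that share the last number in the bracketed code of the sample title. That number is read here as the column of the array on its slide, which the labels do not state. By this reading column 3 held sham rats 4, 5 and 7, and column 4 held exposed rats 1, 5 and 6 and sham rat 8. Columns 1 and 2 held the other 3 exposed and 4 sham rats. Among 1144 bright paired probes, a spot over 0.7 below its median beside a partner at most 0.2 below its own occurred 4, 4 and 25 times in exposed rats 1, 5 and 6 and 4, 3, 22 and 13 times in sham rats 4, 5, 7 and 8. It occurred 0 times on the 7 arrays of columns 1 and 2. The counts of 25, 22 and 13 were all on slide 4, whose remaining array, sham rat 6 in column 2, had 0. Of the 77 genes' 1078 quantile values, 13 lay over 0.5 below the gene's median, in 8 genes, and all 13 were on arrays of columns 3 and 4.

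The quantile deviations of the 77 genes were also correlated between arrays. In column 4 the 6 pairs of arrays gave 0.25 to 0.96 (median 0.47), the highest being exposed rat 6 with sham rat 8, and in column 3 the 3 pairs of sham rats gave 0.74 to 0.81. The 10 pairs in column 2 gave -0.32 to 0.61 (median 0.35), the 1 pair in column 1 gave 0.39, and the 71 pairs across columns gave -0.63 to 0.63 (median -0.19). Without the 8 genes that held low values the ranges were -0.02 to 0.87 in column 4, 0.36 to 0.55 in column 3, -0.58 to 0.49 in column 2 and -0.6 to 0.59 across columns. These are given as a description, over genes that are not independent. With the 7 arrays of columns 1 and 2 alone, an alternative chosen after seeing the data, the median difference of the family was 0.0026 on the 75th percentile scale and 0.015 on the quantile scale, and 0 members had an unadjusted limma p under 0.05. Column 3 held no exposed rat, so for a gene low in that column place and group cannot be told apart there.

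**Figure D5:**
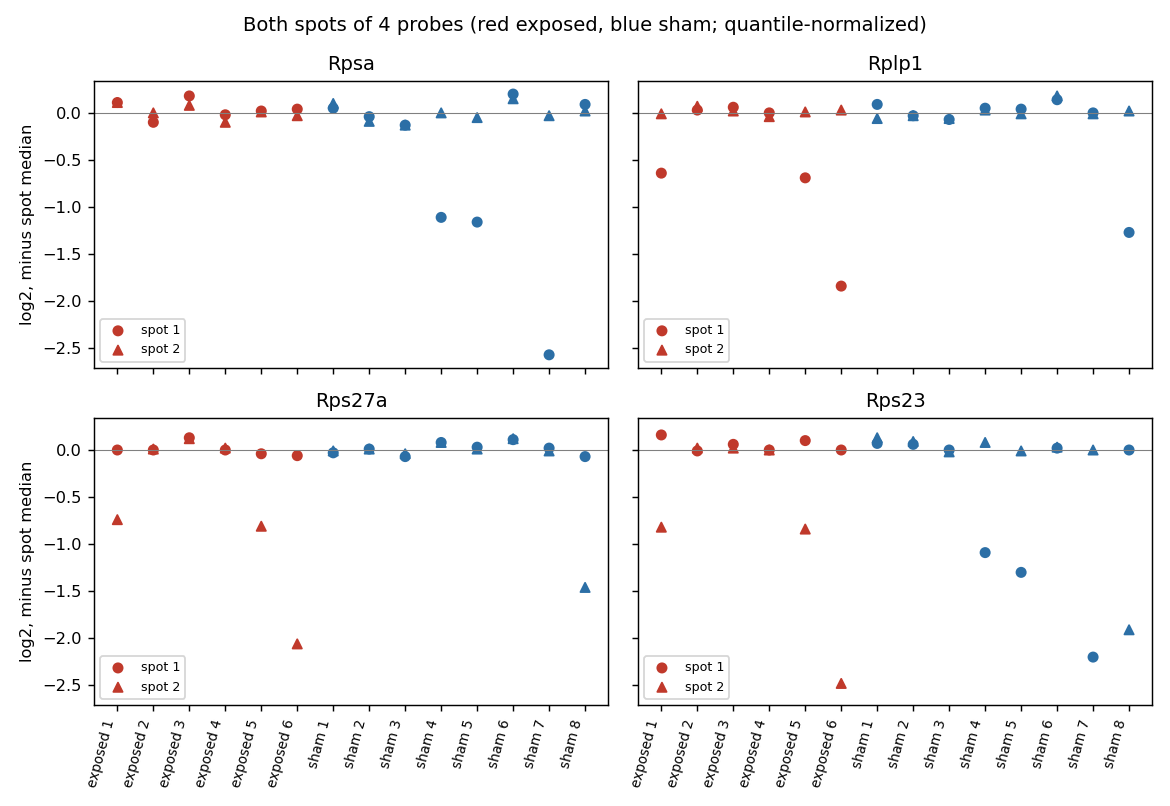
Both spots (circle and triangle) of 4 paired probes on each of the 14 arrays, as quantile-normalized log2 minus the spot's median (y axis), exposed rats in red left of sham rats in blue; the panels are Rpsa, Rplp1, the second probe of Rps27a and the second probe of Rps23. A single spot reaches as low as -2.57 on the arrays of exposed rats 1, 5 and 6 and sham rats 4, 5, 7 and 8, while its partner stays near 0.

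Signs were also compared between probes of the same gene. Of the 47 members with several probes above background, the probes of 19 gave differences of opposite sign on the 75th percentile scale and those of 26 on the quantile scale. Some of these differences were very small, such as 0.0033 and -0.0031 in Rpl39 and 0.002 and -0.04 in Rpl8 on the 75th percentile scale. The share over all genes with several probes is not given here, so the counts are a description. A further 30 members had 1 probe.

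Genes that work with the ribosome were set beside the family. On the 75th percentile scale the exposed mean was above the sham mean in 43% of all genes, with a median difference of -0.019, and on the quantile scale in 48%, with a median of -0.0057. The 28 measured translation factors and other TOP mRNA genes, such as Eef1a1, Eef2 and Tpt1, had a mean in sham rat 6 of 0.11 on the 75th percentile scale and -0.24 on the quantile scale, so that its sign turned with the scaling. Their mean correlation was 0.066 and 0.12 on these scales. Of the 28, 14 were above the sham mean in exposed rats and 14 below on the 75th percentile scale, with a median difference of -0.00073. On the quantile scale 19 were above and 9 below, with a median difference of 0.025, and 0 passed the adjusted p of 0.05 on either scale.

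The 41 measured genes of ribosome biogenesis, among them Fbl, Ncl and Polr1a, were above the sham mean in 27 and below in 14 on the 75th percentile scale and in 31 and 10 on the quantile scale, with median differences of 0.031 and 0.034 and 0 calls. In sham rat 6 they stood at -0.27 and -0.31 on these scales, below their averages. The 66 mitochondrial ribosomal proteins, a separate set of proteins for the mitochondrial ribosome, were above in 45 and below in 21 on the 75th percentile scale and in 50 and 16 on the quantile scale. Their median differences were 0.036 and 0.047 with 0 calls, and their means in sham rat 6 were 0.21 and 0.11. The 19 measured genes of mTOR signalling to the ribosome, including Mtor, Rptor and Rps6kb1, were above in 10 and below in 9 on the 75th percentile scale and in 12 and 7 on the quantile scale, with median differences of 0.021 and 0.025 and 0 calls.

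The slides gave differing values for the family. Slide 1 held 2 sham rats and slide 2 held 2 exposed rats, so only slides 3 and 4 hold both groups. Within slide 3, with 3 exposed and 3 sham rats, the median difference of the family was 0.087 on the 75th percentile scale and -0.0006 on the quantile scale. Within slide 4, with exposed rat 6 against sham rats 6, 7 and 8, it was -0.42 and 0.035, where the single exposed array was assumed to vary as the sham arrays do. With the slide as a block it was -0.093 and 0.012. No member passed an adjusted limma p of 0.05 in any of these fits.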

How the data were processed

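Skin of 14 rats was hybridised to 1-colour Agilent arrays labelled with Cy3, per the labels' protocols. The deposited intensity is the processed signal of Agilent Feature Extraction 10.7.3.1, per the file headers; background subtraction is part of it. The authors' deposited log2 table, with 15168 probes, was an alternative. Spots of a probe were averaged without flagged spots, and a probe was kept when well above background on at least 6 arrays. Genes were named by accession through RefSeq and each took its brightest kept probe. Log2 values minus each array's 75th percentile were the main scale and quantile normalization the second. limma 3.58.1 in R 4.3.3 fitted exposed against sham over 18611 genes with Benjamini-Hochberg adjustment, checked on simulated data. The number of arrays limits the precision.

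Genes named were a list by role, the 4 members in each direction with the smallest p, and the 3 with the largest and smallest SD over arrays. Members and lists were chosen with earlier results of these data known. Alternatives covered scaling, background, filter, probe choice, slide, array weights, a muscle covariate and single arrays; those on duplicate spots, slide columns, array pairs and no scaling were added after seeing the data. Some results of single genes are not reported here.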

Additional observations from a re-analysis of the deposited data

Results flagged for a closer look

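Values of 23 named genes and of the family median were checked in each group, under both scalings, for an array whose gap to its neighbour is large against the range of the group; 31 of 96 such groups had one, where chance gives about 1 in 20. Each result is given with that gap as a share of the range. The checks are not independent, since the genes share the arrays.

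The median of the ribosomal protein genes was highest in sham rat 6 under both scalings, at 1 on the 75th percentile scale (share 0.737) and 0.11 on the quantile scale (share 0.556). On the 75th percentile scale sham rat 6 was also the highest sham array, by this measure, for 14 named genes. The shares were 0.587 for Rplp0, 0.794 for Rplp2, 0.612 for Rps6, 0.662 for Rps14, 0.544 for Rps4x, 0.576 for Rpl3, 0.75 for Rpl11, 0.661 for Rpl10, 0.717 for Rpl22, 0.674 for Rpl22l1, 0.737 for Rps27a, 0.551 for Rpl31, 0.682 for Rpl7a and 0.619 for Rpl36a.

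On the quantile scale several arrays stood apart, with the log2 value beside each gene. Exposed rat 1 was the lowest of its group for Rpl7a (15.90, share 0.743). Exposed rat 3 was the lowest of its group for Rps4x (15.36, share 0.651) and Rpl5 (15.73, share 0.671). Exposed rat 6 was the lowest of its group for Rps4y2 (12.73, share 0.695) and Rpl36a (16.05, share 0.678). Sham rat 1 was the lowest of its group for Rplp2 (18.04, share 0.581) and Rpl10 (17.43, share 0.549). Sham rat 6 was the highest of its group for Rpl22 (17.16, share 0.557). Sham rat 6 was the lowest of its group for Rps6 (16.98, share 0.531), Rpl3 (16.90, share 0.603) and Rpl5 (15.61, share 0.637). Sham rat 7 was the lowest of its group for Rps3 (17.21, share 0.682) and Rpl13a (17.23, share 0.64). Sham rat 8 was the lowest of its group for Rplp1 (17.27, share 0.747) and Rps4y2 (13.26, share 0.727). Exposed rats 1 and 6 and sham rats 7 and 8 are arrays on which single spots read low.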

How the results depend on the processing

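Under every alternative run, 0 ribosomal protein genes passed an adjusted limma p of 0.05. The median difference of the family, exposed minus sham, was -0.016 on the 75th percentile scale and 0.015 on the quantile scale; within slide 4 the first of these was -0.42, where 1 exposed array met sham rat 6. Leaving out each array in turn, it ran between -0.077 without exposed rat 3 and 0.12 without sham rat 6 on the 75th percentile scale, and between 0.004 without exposed rat 6 and 0.026 without sham rat 6 on the quantile scale. The number of members with an unadjusted p under 0.05, 0 in the reported fit, was 0 to 5 on leaving out 1 array, 3 with array weights (Rpl22l1, Rpl31 and Rps25; the weight of sham rat 6 was 0.127) and 1 within slide 3 (Rpsa); the cause was not tested. The sign of 4 of the 23 named genes turned under quantile normalization, of 9 without sham rat 6, of 10 within slide 3 and of 12 within slide 4, the most under any alternative run. The median SD of a member over arrays was 0.36 on the 75th percentile scale, 0.089 on the quantile scale and 0.14 without scaling. No probe was saturated, so leaving out saturated probes was not run. No paired analysis was possible because the labels give no replicate numbers and do not name cage pairs.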

Other observations

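Marker lists of the cell types in skin were read on the same arrays, and their part in the ribosomal protein values was not tested. All 13 skeletal muscle markers and all 13 hair follicle markers above background were higher on average in exposed rats, against 43% of all genes. Their median differences were 1.36 and 0.75 log2 units on the 75th percentile scale, and 0 of either list passed an adjusted limma p of 0.05. The array held 15 of the muscle markers. Within each list the genes moved together, with mean correlations of 0.95 and 0.82 on that scale, so these counts are not of independent genes. The hair follicle mean ran between -1.45 and 1.71 in exposed rats and between -1.69 and 1.36 in sham rats. The 7 adipocyte markers had a median difference of 0.2, the 9 fibroblast markers -0.12, the 12 immune cell markers -0.099 and the 7 basal keratinocyte markers -0.056, each with 0 adjusted calls.

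In sham rat 6, where the ribosomal protein genes stood highest on the 75th percentile scale, the hair follicle markers averaged -1.45, the adipocyte markers -1.25, the skeletal muscle markers -0.9, the 13 cell cycle genes -0.48, the basal keratinocyte markers -0.25 and the 3 red blood cell markers 0.64 relative to their own means. On the quantile scale these values were -1.51, -1.37, -0.86, -0.49, -0.64 and 0.52. The fibroblast markers were 0.05 and -0.35 and the immune cell markers -0.038 and -0.091 on the 2 scales. Hair follicle, adipocyte, skeletal muscle, cell cycle and basal keratinocyte genes were thus below their means in that rat under both scalings, while the ribosomal protein median was 1 under the first and 0.11 under the second.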
